A study of Mus musculus with 4 samples.

Results

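The 10 genes described here are the prolactin receptor gene Prlr, the genes of the kinase and the transcription factors it signals through (Jak2, Stat5a and Stat5b), the feedback inhibitor genes Cish, Socs1, Socs2 and Socs3, and the tryptophan hydroxylase genes Tph1 and Tph2. They were chosen by gene name, and every probe carrying one of these names was taken, which gave 15 probes and 24 spots per array, of 55681 probes and 22328 named genes in all. The data are 4 one-colour Agilent arrays of total RNA from pancreatic islets of 24-week-old C57BL/6 mice, isolated with collagenase and a density gradient and picked by hand. The groups were transgenic males profiled 6 weeks after an E2 implant (male Tg E2), transgenic females (female Tg), transgenic males, labelled diabetic (male Tg) and wild-type males (male WT), with 1 array each. E2 commonly stands for estradiol. The labels used here name neither the transgene nor the promoter that drives it, give no dose or control implant, and do not say how many mice an array represents. With 1 array per group there is no replicate check and no test. Each difference below is one between single arrays, and no p-value is given.

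Prolactin and the placental lactogens bind the receptor encoded by Prlr, which carries the kinase Jak2. Jak2 phosphorylates Stat5a and Stat5b, which move to the nucleus and switch on target genes, among them Cish, Socs2 and other SOCS genes whose products then damp the signal. In mouse beta cells this route is known for the growth of islets in pregnancy, when the serotonin-making enzyme Tph1 is strongly induced and the serotonin made in islets acts on beta cells through Htr2b and Htr3a.

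Sequences are given for the Prlr probe listed for more RefSeq transcripts. They are also given for the 2 promoters among these genes in which a STAT5 motif lay nearest to the start site. The Prlr probe at mm9 chr15:10255629-10255688, plus strand, is listed in the file for 3 RefSeq transcripts, whereas the brighter Prlr probe nearer the 3′ end, at chr15:10259066-10259125, is listed for 1. For Ensembl transcripts the order is the other way, with 1 for the probe printed below and 2 for the brighter probe. Mouse Prlr is known to give a long receptor and short forms that lack most of the intracellular part. The promoter sequences are from RefSeq, build GRCm38.p6, at chr9:107296569-107296688 for Cish and chr15:10223706-10223894 for the middle of the 3 start sites listed for Prlr, both on the plus strand. Capitals mark matches to the palindromic STAT5 motif TTCNNNGAA.
Prlr probe: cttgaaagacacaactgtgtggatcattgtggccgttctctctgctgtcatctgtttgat
Cish promoter: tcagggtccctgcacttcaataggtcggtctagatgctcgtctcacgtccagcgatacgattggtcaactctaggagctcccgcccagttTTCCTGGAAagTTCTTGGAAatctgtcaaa
Prlr promoter: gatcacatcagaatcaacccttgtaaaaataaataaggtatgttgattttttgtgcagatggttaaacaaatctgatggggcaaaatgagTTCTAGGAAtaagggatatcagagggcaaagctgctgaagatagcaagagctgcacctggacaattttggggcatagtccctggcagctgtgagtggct

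The Cish window holds 2 motifs, which begin at +1 and +12, where +1 is the annotated start base, and the Prlr window holds 1, which begins at -110. Socs3 has a single match at -154, and the entries of Jak2, Stat5a, Stat5b, Socs1, Tph1 and Tph2 hold none. The search covered both strands of 14 entries of 300 bases for 9 of the genes, and 3 of these entries held the motif. Of all 32851 promoters of the same length, 8.3% held it. The palindromic estrogen response element, with its inner 3 bases free, was found in 0 of the 14 entries and in 0.07% of all promoters. A match is a run of letters and was not shown to be a binding site.

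A level is the log2 of the background-corrected intensity minus the 75th percentile of the array, so 0 is the signal of a fairly bright probe. Between 49.9% and 54.8% of spots were well above background by the scanner software's own call, and 0 spots were saturated. The 75th percentile was 299 on the male Tg E2 array, 261 on the female Tg array, 202 on the male Tg array and 365 on the male WT array. All 10 beta cell, all 6 alpha cell and all 4 delta cell markers were above background on every array, which fits the islet label. Acinar markers were too, with summed linear levels of 5994 on the male Tg E2 array, 1372 on the female Tg array, 9266 on the male Tg array and 1274 on the male WT array. Xist was above background on the female Tg array only. A standard error given with a difference comes from the scanner software's error model, is about 0.20 log2 for bright probes, and does not cover differences between mice. In bulk RNA, fewer cells of a type and less RNA per cell cannot be told apart.

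**Figure D1:**
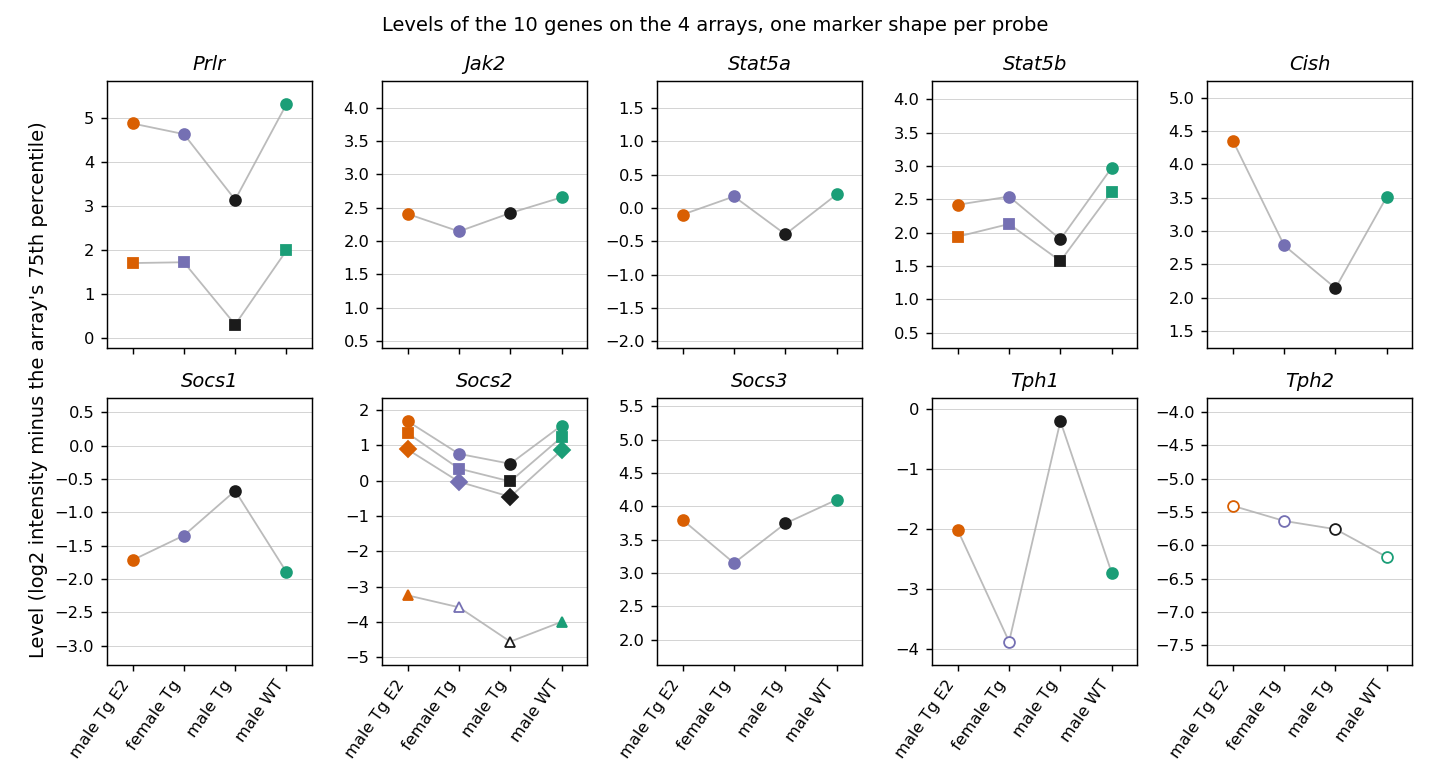
Level of each probe (log2 intensity minus the array's 75th percentile) on the male Tg E2, female Tg, male Tg and male WT arrays. Marker shapes are probes, open symbols are not well above background, lines join the points of 1 probe, and the vertical range differs between panels. Prlr, Stat5a, Stat5b, Cish and Socs2 are lowest and Socs1 and Tph1 highest on the male Tg array.

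Of the 10 genes, 9 were measured in male Tg against male WT islets, meaning well above background on both arrays. At a 2-fold threshold 2 were higher on the male Tg array (Socs1 and Tph1) and 4 were lower (Cish, Prlr, Socs2 and Stat5b), while over all 14382 measured genes 15.6% were higher and 8.68% lower, 24.3% in all. The 9 genes had a median of -0.60 log2, beside -0.21 over all measured genes. Against male Tg, the male Tg E2 array had 3 of 9 genes at least 2-fold higher (Cish, Prlr and Socs2) and 2 lower (Socs1 and Tph1), where 2.55% of 14616 genes were higher and 8.0% lower, 10.6% in all. The median was 0.30, beside 0.12 over all genes. On the female Tg array 1 of 8 measured genes, Prlr, passed 2-fold upwards against the male Tg array and 0 downwards, where 3.51% of 14207 genes were higher and 8.57% lower, 12.1% in all. The median there was 0.42, beside 0.10 over all genes. These 3 comparisons share the male Tg array, so a low or high reading on that array enters each of them.

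Set against male WT instead, 0 of 9 genes on the male Tg E2 array and 0 of 8 on the female Tg array passed 2-fold in either direction. The background was 8.82% of genes higher and 2.64% lower for male Tg E2, 11.5% in all, and 7.63% higher and 3.47% lower for female Tg, 11.1% in all. The nearest to the threshold was Socs3 in female Tg islets, at -0.95. Tph1 was not well above background on the female Tg array and is described with its bound further on.

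**Figure D2:**
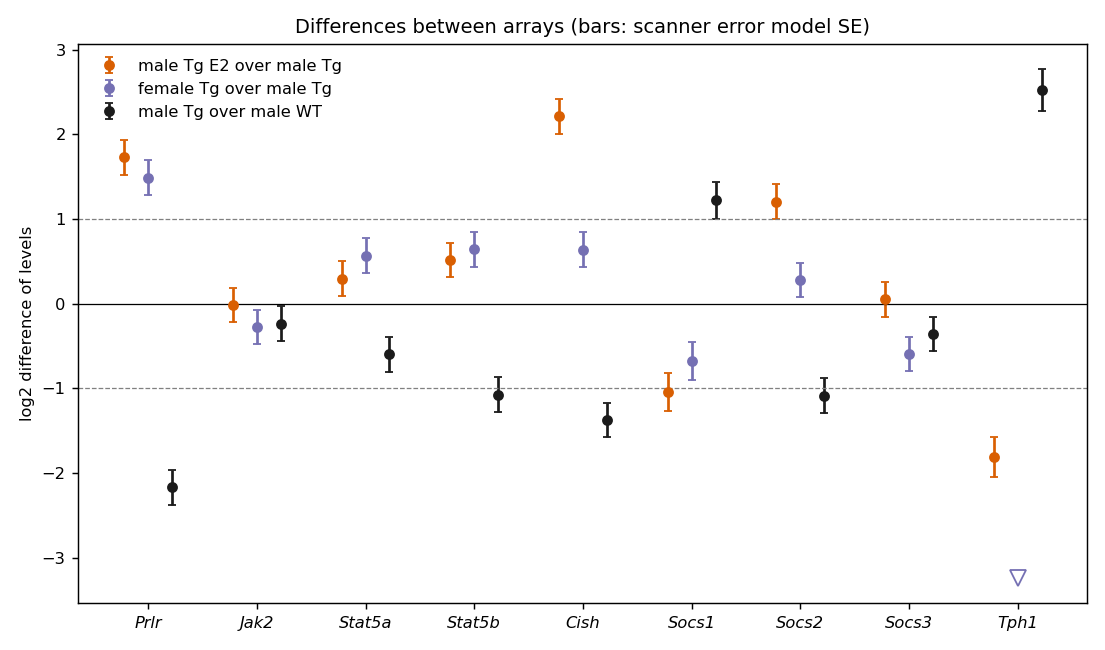
Log2 differences of the 9 genes with a measured level for male Tg E2 over male Tg, female Tg over male Tg and male Tg over male WT. Bars are the scanner error model's standard error, dashed lines mark 2-fold, and the open triangle is the bound for Tph1, whose female Tg level lies at least that far below male Tg. Prlr lies past 2-fold in all 3 comparisons.

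Prlr, the receptor gene, had a level of 4.87 on the male Tg E2 array, 4.63 on the female Tg array, 3.14 on the male Tg array and 5.31 on the male WT array by its brighter probe. The male Tg array stands below the other 3, which lie within 0.68 log2 of each other. Male Tg islets read 4.50-fold lower than male WT islets (-2.17 ± 0.20 log2, error model SE), and 0.904% of all measured genes had a lower difference. Prlr was 3.32-fold higher on the male Tg E2 array than on the male Tg array (1.73 ± 0.20) and 2.81-fold higher on the female Tg array (1.49 ± 0.20). In these comparisons 99.5% and 99.4% of genes lay below it. As a share of the male WT level, Prlr stood at 73.8% in male Tg E2, 62.5% in female Tg and 22.2% in male Tg islets.

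The Prlr probe printed above is the one listed for more RefSeq transcripts. Its levels were 1.71, 1.72, 0.31 and 1.99 on the male Tg E2, female Tg, male Tg and male WT arrays. It gave the same signs, with 1.40 for male Tg E2 against male Tg, 1.41 for female Tg against male Tg and -1.68 for male Tg against male WT. The probes differed most in male Tg over male WT, where they lay 0.49 log2 apart. Which transcript forms account for that gap was not tested. The beta cell markers had a median difference of 0.45 for male Tg E2 against male Tg, 0.68 for female Tg against male Tg and -1.62 for male Tg against male WT. Their differences in male Tg over male WT ranged between -4.39 and 0.73, with the insulin genes Ins1 and Ins2 at 0.67 and 0.73, and the part of beta cell content in the Prlr reading was not tested. Their summed linear level, which highly expressed genes such as the insulins dominate, was 2612 on the male Tg E2 array, 2482.5 on the female Tg array, 3351 on the male Tg array and 2645 on the male WT array, so the sum was highest on the male Tg array.

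**Figure D3:**
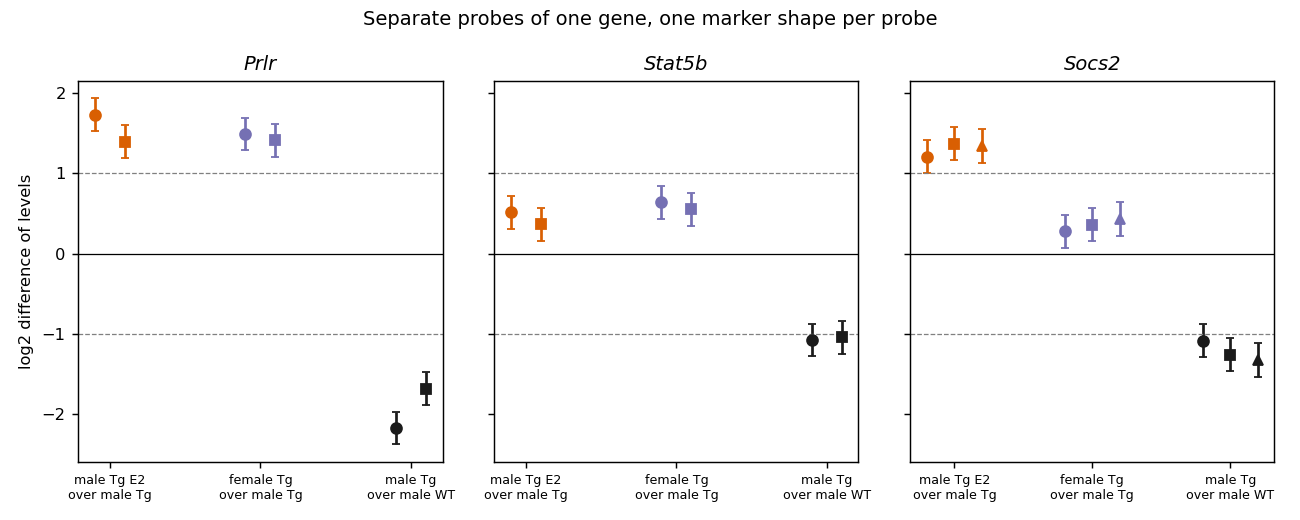
Log2 differences of each probe well above background on all 4 arrays for Prlr, Stat5b and Socs2, with error model standard errors and 2-fold marked by dashed lines. Each marker shape is a probe, and the probes of a gene have the same sign in all 3 comparisons.

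Jak2, the kinase bound to the receptor, had levels of 2.41 on the male Tg E2 array, 2.15 on the female Tg array, 2.42 on the male Tg array and 2.66 on the male WT array. Its whole range was 0.51 log2, and the male Tg E2 and male Tg arrays differed by -0.01 ± 0.20. Jak2 did not follow the low male Tg reading of its receptor: female Tg over male Tg was -0.28 and male Tg over male WT -0.23, each close to its standard error. The probe lies at mm9 chr19:29387487-29387546.

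Stat5a and Stat5b are neighbouring genes for closely related transcription factors, with probes at mm9 chr11:100746373-100746432 for Stat5a and chr11:100642045-100642104 and chr11:100642187-100642246 for Stat5b. Stat5a had levels of -0.10, 0.17, -0.39 and 0.20 on the male Tg E2, female Tg, male Tg and male WT arrays, so the male Tg reading was the lowest. The differences were 0.30 for male Tg E2 over male Tg, 0.57 for female Tg over male Tg and -0.60 for male Tg over male WT, all short of 2-fold. Stat5b was brighter, with levels of 2.42, 2.54, 1.90 and 2.98 in the same order of arrays. It was 2.10-fold lower on the male Tg array than on the male WT array (-1.07 ± 0.20), and its second probe gave -1.04. Over 8 other ways of processing it lay between -1.10 and -0.81, short of 2-fold with quantile normalization. Relative to the median of all genes in that comparison the difference was -0.87. Male Tg E2 and female Tg islets lay between, at 68.0% and 74.1% of the male WT level, beside 47.5% in male Tg islets.

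Cish, an inhibitor induced by STAT5, had the widest range, 2.21 log2, of the 8 genes measured on all 4 arrays. Its level was 4.35 on the male Tg E2 array, 2.78 on the female Tg array, 2.14 on the male Tg array and 3.51 on the male WT array. The male Tg E2 array was the highest and stood above male WT, at 179% of its level. Cish was 4.63-fold higher in male Tg E2 than in male Tg islets (2.21 ± 0.20), and 99.8% of measured genes lay below it in that comparison. The female Tg array did not share this reading, with 0.64 over male Tg and 60.2% of the male WT level. In male Tg over male WT the Cish difference was -1.37 ± 0.20, a 2.59-fold lower level. The gene has 1 probe, at mm9 chr9:107204196-107204255, so its values have no second probe beside them.

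Socs2, which restrains growth hormone and prolactin signalling, has a probe spotted 10 times per array, at mm9 chr10:94875066-94875125. Its level was 1.69 on the male Tg E2 array, 0.76 on the female Tg array, 0.48 on the male Tg array and 1.57 on the male WT array. The arrays fall into a high pair, male Tg E2 and male WT, and a low pair, female Tg and male Tg. Male Tg E2 over male Tg was 1.21 ± 0.20, or 2.31-fold higher. Male Tg over male WT was -1.08 ± 0.20, or 2.12-fold lower, and with quantile normalization this gap fell short of 2-fold. The standard deviation over the 10 spots was 0.0968, 0.106, 0.0948 and 0.0706 log2 on the male Tg E2, female Tg, male Tg and male WT arrays. The female Tg and male Tg arrays differed by 0.28, and the male Tg E2 and male WT arrays by 0.12. The remaining bright Socs2 probes gave 1.37 and 1.34 for male Tg E2 against male Tg, 0.36 and 0.43 for female Tg against male Tg, and -1.25 and -1.32 for male Tg over male WT. A further Socs2 probe, annotated to an Ensembl transcript only, was dim and above background on the male Tg E2 and male WT arrays alone.

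Socs1, a strong inhibitor of JAK kinases that interferon and other cytokines induce, went the other way. Its level was -1.72 on the male Tg E2 array, -1.35 on the female Tg array, -0.68 on the male Tg array and -1.90 on the male WT array, so male Tg was the highest. Male Tg E2 over male Tg was -1.04 ± 0.23, female Tg over male Tg -0.67, and male Tg over male WT 1.22 ± 0.22, a 2.33-fold higher level. The gene is dim at its 1 probe, mm9 chr16:10783951-10784010, with intensities before scaling of 90.9, 102, 126 and 97.9 on the male Tg E2, female Tg, male Tg and male WT arrays. Both differences fell short of 2-fold when the background was modelled differently, at -0.68 and 0.83. Lymphocyte markers had the same order of arrays, with summed linear levels of 25.8 on the male Tg E2 array, 66.4 on the female Tg array, 97.1 on the male Tg array and 16.5 on the male WT array. All 10 of these markers were above background on the female Tg, male Tg and male WT arrays and 9 on the male Tg E2 array, and their part in the Socs1 reading was not tested.

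Socs3, the inhibitor best known from interleukin 6 and leptin signalling, was read at mm9 chr11:117827480-117827539 and had levels of 3.79, 3.15, 3.74 and 4.10 on the male Tg E2, female Tg, male Tg and male WT arrays. Here the female Tg array was the lowest, at 51.8% of the male WT level, while male Tg E2 and male Tg stood at 81.0% and 78.2%. No Socs3 difference passed 2-fold, with 0.05 for male Tg E2 over male Tg, -0.59 for female Tg over male Tg and -0.36 for male Tg over male WT. Cish and Socs2 shared 1 order of the arrays and the other inhibitor genes did not: Cish and Socs2 were lowest and Socs1 highest in male Tg, and Socs3 was lowest in female Tg.

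Tph1, read by 1 probe at mm9 chr7:53902553-53902612, encodes the enzyme that starts serotonin synthesis outside the brain. Its level was -2.02 on the male Tg E2 array, -3.87 on the female Tg array, -0.20 on the male Tg array and -2.73 on the male WT array, and the female Tg signal was not well above background. The intensities before scaling were 74.0, 17.9, 176 and 55.2 in that order, so the gene was dim even where it was highest. Male Tg islets read 5.74-fold higher than male WT islets (2.52 ± 0.25), and 96.1% of measured genes lay below this difference. Male Tg E2 islets read 3.51-fold lower than male Tg islets (-1.81 ± 0.24), with 2.52% of genes below. With normexp background correction these differences were smaller, down to 1.35 for male Tg over male WT and -1.13 for male Tg E2 over male Tg, both still past 2-fold. Female Tg islets read at least 9.40-fold lower than male Tg islets and at least 1.64-fold lower than male WT islets. Such a bound sets the clear signal against the lowest level that was well above background on the other array. Both bounds were taken without normexp correction and carry no standard error. Male Tg E2 over male WT was 0.71 ± 0.27. Tph2, the brain form of the enzyme, gave no signal well above background on the 4 arrays.

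Markers of other serotonin-making cells were read beside Tph1. Of 10 mast cell markers, 5 gave a signal over background on the male Tg E2 array, 4 on the female Tg array, 5 on the male Tg array and 4 on the male WT array. The mast cell protease genes Cpa3, Cma1 and Tpsab1 and the IgE receptor genes Ms4a2 and Fcer1a were not above background on any array. Of the other proteases, Mcpt4 was above background on the male Tg E2 and male Tg arrays only, at least 1.06 log2 higher in male Tg than in male WT islets. Tpsb2 was above background on every array. Its levels were -0.84, -1.09, -0.60 and -1.31 on the male Tg E2, female Tg, male Tg and male WT arrays. It was highest on the male Tg array, as Tph1 was, with -0.24 ± 0.21 for male Tg E2 over male Tg. The receptor gene Kit was 1.12 higher in male Tg than in male WT islets. Kit was 0.92 higher again in male Tg E2 than in male Tg islets. Kit and Mcpt4 were highest on the male Tg E2 array, and Hdc and Gata2 on the female Tg array. The summed mast cell level, to which Kit and Hdc contribute most, was 4.96, 3.19, 3.87 and 2.55 in the order used for Tpsb2. Gut endocrine markers were mixed, and their median difference was -1.04 in male Tg E2 over male Tg, -2.30 in female Tg over male Tg and 3.39 in male Tg over male WT, and 6 of 7 were above background on every array. The median had the sign of the Tph1 difference in each comparison. The secretin gene Sct gave -2.31, -3.18 and 2.69 in these comparisons and the cholecystokinin gene Cck -1.60, -3.88 and 4.09, while Lmx1a, an enterochromaffin cell factor, was above background on none. Trpa1, an ion channel gene of enterochromaffin cells, gave 0.76, 0.42 and 0.61, and Chga -0.06, -0.05 and 0.29. The summed gut endocrine level, which Chga dominates, was 923 on the male Tg E2 array, 916 on the female Tg array, 1021 on the male Tg array and 773 on the male WT array. Acinar markers had medians of -0.65, -3.82 and 3.99 in the same comparisons. The part of these markers in the Tph1 reading was not tested.

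The rest of the serotonin route did not follow Tph1. Over all measured genes in male Tg against male WT islets, 15.6% passed 2-fold upwards and 8.68% downwards, with a median of -0.21. Of 18 measured genes for synthesis, cofactor supply, packaging, uptake and breakdown, 3 passed upwards and 6 downwards, with a median of -0.35. The 6 lower genes include Ddc, which completes serotonin synthesis (-1.02), the vesicle transporter gene Slc18a1 (-1.35), the degrading enzyme gene Maob (-2.39), and Gch1 and Pts, which make the cofactor of the hydroxylases (-1.31 and -1.23). Th, the hydroxylase of dopamine synthesis, was the sixth (-1.20). The higher genes include Slc6a4, the serotonin transporter gene (1.31), and Gchfr, a regulator of Gch1 (1.34). In male Tg E2 over male Tg 1 gene was higher, Slc18a1 (1.67), beside 2.55% of all measured genes. Lower were 3 genes, among them Slc6a4 at -2.91 and Gchfr at -1.49, beside 8.0% of all. In female Tg over male Tg Maob (1.81) and Gch1 (1.03) were higher, beside 3.51% of all measured genes. The 3 lower genes include Gchfr (-1.40) and Slc6a4 (-1.27), beside 8.57% of all. The other vesicle transporter gene, Slc18a2, and Fev, a factor of serotonin neurons, stayed within 2-fold in all 3 comparisons, at -0.42 and 0.26 in male Tg E2 against male Tg, -0.17 and 0.24 in female Tg over male Tg, and 0.89 and 0.82 in male Tg over male WT.

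Slc6a4 is also a gene of platelets, and platelet markers had the same order of arrays. Their summed linear level was 10.4 on the male Tg E2 array, 55.6 on the female Tg array, 108 on the male Tg array and 46.4 on the male WT array, with all 7 above background on every array. Their median difference was -3.32 in male Tg E2 over male Tg, -1.01 in female Tg over male Tg and 1.25 in male Tg over male WT, and their part in the Slc6a4 reading was not tested.

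**Figure D4:**
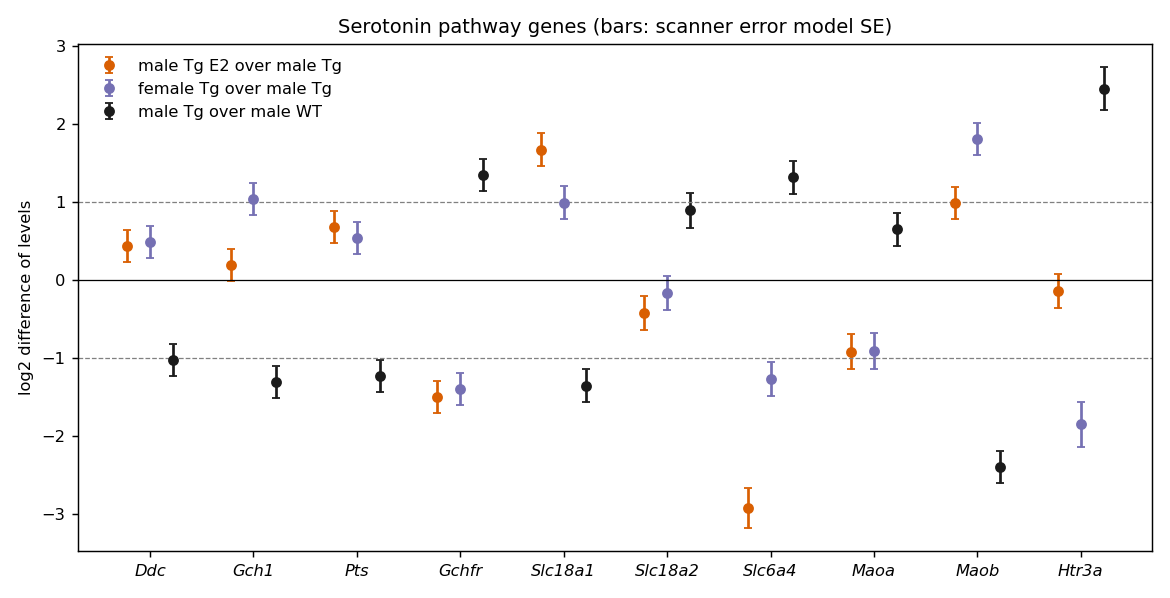
Log2 differences of 10 genes of the serotonin route for male Tg E2 over male Tg, female Tg over male Tg and male Tg over male WT, with error model standard errors and dashed lines at 2-fold. In male Tg over male WT, Ddc, Gch1, Pts, Slc18a1 and Maob lie below 0. Gchfr, Slc18a2, Slc6a4, Maoa and Htr3a lie above it.

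Of 14 serotonin receptor genes, Htr3a was the only one well above background on all 4 arrays. It encodes a receptor that is an ion channel and is linked to insulin release in pregnancy. Its level was -0.95 on the male Tg E2 array, -2.66 on the female Tg array, -0.81 on the male Tg array and -3.26 on the male WT array. The 2 transgenic male arrays were thus high and close together, with -0.14 for male Tg E2 over male Tg. The other differences were -1.85 for female Tg over male Tg and 2.45 ± 0.27 for male Tg over male WT. In these comparisons acinar markers had medians of -0.65, -3.82 and 3.99, and stellate and matrix markers 0.12, -1.19 and 3.96. The part of these markers in the Htr3a reading was not tested. Htr2b, the receptor linked to beta cell growth in pregnancy, and Htr1d, linked to the end of that growth around birth, were not well above background on any array. Htr6 was above background on all but the male Tg array, and Htr7 on the male Tg array alone.

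Among 15 ligand and related receptor genes, Prl and Gh were not above background on any array, so neither hormone gene gave a clear signal in these islets. Ghr, the growth hormone receptor gene, which signals through the same kinase and STAT5, had levels of 3.88, 3.01, 2.63 and 4.23 on the male Tg E2, female Tg, male Tg and male WT arrays. Male Tg was its lowest array too, with 1.26 for male Tg E2 over male Tg, 0.39 for female Tg over male Tg and -1.60 for male Tg over male WT. In male Tg over male WT 15.6% of all measured genes passed 2-fold upwards and 8.68% downwards, with a median of -0.21. Of this list, 4 of 12 measured genes passed upwards and 3 downwards, with a median of 0.52. The higher ones were the cytokine receptor genes Csf2rb (3.17), Il2rg (2.87), Lepr (1.43) and Il6st (1.02), and the lower ones Ghr, Igf1r (-1.38) and Csf2ra (-1.05). Il7r was not above background in male WT islets and at least 4.01 log2 higher in male Tg islets. In male Tg E2 over male Tg Ghr alone of 13 was higher, beside 2.55% of all measured genes. The 4 lower genes include Il2rg (-1.59), Csf2rb (-1.47) and Il7r (-1.25), beside 8.0% of all. In female Tg over male Tg none of 13 was higher, beside 3.51% of all measured genes. The 2 lower genes include Lepr (-1.93), beside 8.57% of all. Il2rg and Il7r are lymphocyte genes, so they stand beside the lymphocyte markers given above.

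Few of the other JAK and STAT genes differed by 2-fold, where 24.3% of all measured genes did in male Tg over male WT. Of 8 measured, Stat4, a factor of lymphocytes, was the only one past 2-fold, at 3.33 in male Tg over male WT and -1.52 in male Tg E2 over male Tg, with a female Tg over male Tg difference of -0.22. Jak1 had 0.21 in male Tg E2 over male Tg, 0.46 in female Tg over male Tg and -0.63 in male Tg over male WT. Stat3 had 0.02, -0.08 and -0.82 in these comparisons. A further group was 14 measured SOCS genes and other brakes of JAK signalling outside the 10 genes. In male Tg over male WT 0 of them passed 2-fold, beside 24.3% of all measured genes. In male Tg E2 over male Tg it was 0 as well, beside 10.6%. Cbl, a ubiquitin ligase, was 1.16 higher in female Tg than in male Tg islets. The medians of this group were 0.29 in male Tg E2 over male Tg, 0.34 in female Tg over male Tg and -0.53 in male Tg over male WT.

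Islet genes known to rise in pregnancy or with prolactin were split. In male Tg over male WT 15.6% of all measured genes passed 2-fold upwards and 8.68% downwards. Of this list, 5 of 20 passed upwards and 4 downwards, with a median of -0.21, beside -0.21 over all genes. The lower ones include Slc2a2, the glucose transporter gene (-2.24), Ccnd2, a cyclin of beta cell division (-1.53), and Ivd, a leucine-degrading enzyme (-1.36). The higher ones were Birc5, a mitosis gene (2.04), the repressor gene Bcl6 (1.40), the matrix gene Fbln1 (1.14), Ifrd1 (1.06) and, just past the threshold, the kinase gene Pim1. In male Tg E2 over male Tg 1 of 21, Ivd (2.07-fold), was higher, beside 2.55% of all measured genes. Cldn8 (-1.25), Fbln1 (-1.24), Pim1 (-1.21) and Ehhadh (-1.02) were lower, beside 8.0% of all. In female Tg over male Tg 1 of 20, Ivd (1.01), was higher, beside 3.51% of all measured genes. Fbln1 (-1.84), Ehhadh (-1.44) and Ifrd1 (-1.28) were lower, beside 8.57% of all. Tnfrsf11b, which encodes osteoprotegerin, a decoy receptor that lactogens raise in islets, had 0.24 in male Tg E2 over male Tg, 0.21 in female Tg over male Tg and -0.38 in male Tg over male WT. Of 5 genes for menin and cyclin kinase inhibitors, which restrain beta cell division, none passed 2-fold in these 3 comparisons. The shares of all measured genes past 2-fold there were 10.6%, 12.1% and 24.3%. Men1 itself had -0.35, -0.76 and 0.36.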

How the data were processed

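The values were taken from the deposited scanner output of 4 one-colour arrays, whose processed Cy3 signal is, per the file headers, a background-corrected linear intensity. The file headers give Feature Extraction 10.7.1.1, whereas the submitters' processing notes name 9.5.1.1. The authors' deposited value table, also in intensity units and quantile normalized by them, served as an alternative. The log2 of the intensity was averaged over the spots of each probe, leaving out spots with an outlier flag. It was then centred on each array's 75th percentile over non-control probes. A gene was measured where the deposited well-above-background call, used with no change, held on both arrays, and was read from its brightest probe by mean level. Names came from a RefSeq table (27235 features by accession, 3581 by symbol and 565 by synonym). Arrays shared 1 slide and 1 scan time. The number of arrays limits precision.

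Members and gene lists were chosen with earlier results of these data known. Named pathway genes are up to 6 per list and comparison with the largest differences past 2-fold, plus 14 named whatever their value. Il6st, Pts, Th, Fbln1, Ifrd1 and Pim1 in male Tg over male WT, Slc18a2, Maoa, Htr6, Htr7 and the marker genes named were chosen after values were seen. A few genes that the rule names are not reported here. Alternatives were quantile normalization, normexp background correction (offset 50) in limma 3.58.1 with R 4.3.3, median centring, the deposited table, other filters and the mean of a gene's probes. Computing used Python 3.11.15, numpy 2.4.6 and pandas 2.3.3, and was tested on simulated data. Exon or untranslated region was not assigned to probes.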

Additional observations from a re-analysis of the deposited data

How the results depend on the processing

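No paired analysis was possible because each group has 1 array. Under 8 alternatives, 326 of 344 differences of the 10 genes moved by less than their error model standard error and 18 by more. None of those past 2-fold changed sign. The alternatives that changed only the filter reused the same levels, so they could not move a difference. The mean of a gene's probes could not move a gene with 1 probe. Such unmoved differences are among the 326. The deposited table is quantile normalized, so it is not independent of the quantile alternative. Prlr kept its 2-fold calls under all 8, with ranges of -2.27 to -1.92 in male Tg over male WT, 1.56 to 1.80 in male Tg E2 against male Tg and 1.45 to 1.55 in female Tg over male Tg. Cish did so as well (-1.43 to -1.15, and 2.09 to 2.21 in male Tg E2 against male Tg), as did Tph1 (1.35 to 2.59, and -1.86 to -1.13). In male Tg over male WT, Stat5b and Socs2 passed 2-fold only under some scalings: the number of genes lower was 2 with quantile normalization, with normexp and quantile normalization together, and with the deposited value table, in place of 4. Stat5b ranged between -1.10 and -0.81 there and Socs2 between -1.22 and -0.88. Socs1 lost both calls under normexp with either scaling, which left 1 gene higher in male Tg over male WT and 1 lower in male Tg E2 over male Tg, in place of 2 and 2. Socs1 ranged between 0.58 and 1.29 in the first and between -1.09 and -0.57 in the second. Without the background filter 1 gene, Tph1, was lower in female Tg than in male Tg islets, in place of 0. Socs3 in female Tg over male WT ranged between -1.11 and -0.77 and passed 2-fold under normexp with the 75th percentile. Over all genes, the number at least 2-fold different in male Tg over male WT was 3496, beside 2244 with normexp and quantile normalization and 6190 without the filter. In male Tg E2 over male Tg it was 1542, beside 945 with normexp and the 75th percentile, 949 with normexp and quantile normalization and 3375 without the filter. In female Tg over male Tg it was 1716, beside 1081, 1136 and 3781. The cause of these shifts was not tested. Single arrays give no estimate of variation between mice, and Socs1, Tph1 and the dim Socs2 probe gave low signals.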

Other observations

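Genes whose pattern over the 4 arrays was closest to that of a member are given as a description, with likeness measured as the root mean square difference of mean-centred log2 levels among 3402 genes with a standard deviation of at least 0.5. The closest to Prlr were Peg13 (0.0745), Rnf182 (0.0821), Car15 (0.0925) and Gm9112 (0.105). The closest to Cish were Jhy (0.113), Actn3 (0.178), Fkbp5 (0.197), a well-known glucocorticoid-induced gene, and Slc2a13 (0.211), and Socs2 was at rank 36 (0.367). Fkbp5 had levels of 4.66 on the male Tg E2 array, 2.85 on the female Tg array, 2.72 on the male Tg array and 3.64 on the male WT array, so male Tg E2 stood above the other 3, as for Cish. The closest to Socs2 were Ttc30a2 (0.0243), Serpini1 (0.0610), Trpc4 (0.0631) and Rgcc (0.0719). The closest to Socs1 were the interferon-induced gene Xaf1 (0.0191), Panx1 (0.0373), Apobr (0.0526) and Mcm10 (0.0581). With 4 arrays many genes share a pattern, and nothing about function or control follows from it. For Jak2, Stat5a, Stat5b and Socs3, the standard deviation over the arrays was 0.208, 0.279, 0.442 and 0.397, below that minimum, so their nearest genes are not given.

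Fev, which was named whatever its value, had levels of 0.60 on the male Tg E2 array, 0.58 on the female Tg array, 0.34 on the male Tg array and -0.48 on the male WT array. All 3 transgenic arrays stood above the wild-type array, with differences of 1.08 for male Tg E2, 1.06 for female Tg and 0.82 for male Tg against male WT.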
